A study of Mus musculus with 2 samples.

Results

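Heat shock proteins and chaperones are described here in leukocytes of TSA tumours from untreated mice and from mice given NAM. The 36 genes were chosen by symbol for what they encode, with earlier results of these data known, and all 36 were found among the 27998 genes of the deposited tables. They were kept in 6 classes. There were 9 stress-induced cytosolic chaperones (Hspa1a, Hspa1b, Hspb1, Hsph1, Hsp90aa1, Dnaja1, Dnajb1, Dnajb4 and Bag3) and 8 constitutive cytosolic chaperones (Hspa8, Hspa4, Hspa4l, Hspa14, Hsp90ab1, Dnaja2, Dnajb6 and Cct2). A further 7 were cochaperones (Chordc1, Ahsa1, Stip1, Fkbp4, Ptges3, Cdc37 and Cacybp), 3 were mitochondrial (Hspa9, Hspd1 and Hspe1) and 8 belonged to the endoplasmic reticulum (Hspa5, Hsp90b1, Hspa13, Dnajb9, Dnajb11, Dnajc3, Calr and Canx). Hsf1 stood alone as the regulator.

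TSA cells, a line from a mammary adenocarcinoma of Balb/c mice, were grown under the skin of Balb/c mice, and animals were assigned at random to treatment once tumours were established. The NAM group drank water with 0.5% nicotinamide, a form of vitamin B3 and a precursor of NAD, for 10 days, and the other group was left untreated. Tumours of 3 mice per group were dissociated with a kit and a mechanical dissociator, pooled, and enriched for CD45+ leukocytes on magnetic beads, and each pool gave 1 droplet library. Since each group has 1 library, differences could not be checked in a replicate, no test was made, and an effect of NAM cannot be told apart from any other difference between the pools or libraries.

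Chaperones hold unfolded proteins in solution and help them to fold. When misfolded proteins accumulate in the cytosol, heat shock factor 1 (encoded by Hsf1) binds heat shock elements in promoters and induces Hspa1a, Hspa1b, Hspb1, Dnajb1 and other genes within minutes, while cognates such as Hspa8 and Hsp90ab1 are made at all times. Misfolded proteins in the endoplasmic reticulum act through another pathway, the unfolded protein response, whose factors bind ER stress elements in promoters such as that of Hspa5.

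Cells were sorted into 5 gates by UMIs of marker genes that are not chaperones (a UMI, or unique molecular identifier, marks 1 captured RNA molecule). The macrophage gate held 2093 untreated and 2299 NAM cells, the monocyte gate 249 and 295, the dendritic gate 75 and 82, the T-cell gate 202 and 269, and the NK gate 69 and 35. Median depth per cell was 9898 and 9876 UMIs in the macrophage gate, 5910 and 4878 in the monocyte gate, 9846 and 9262 in the dendritic gate, 4551 and 4400 in the T-cell gate, and 5264 and 4543 in the NK gate. The libraries totalled 29161823 and 32090120 UMIs from 2922 and 3276 cells, and 11 cell barcodes occurred in both. Every marker on each gate's own list that was analysed was detected in that gate in both libraries, and no cell met the B-cell gate. The summed haemoglobin genes Hbb-bs and Hba-a1 moved with the library, from 11.8 to 21.3 CPM over the untreated gates to between 26.6 and 3346 CPM over the NAM gates. Other markers also differed between libraries, among them S100a8 in T cells (9.05 and 36.2 CPM) and Gzma in monocytes (111 and 47.7 CPM). In macrophages H2-DMb2 stood at 252 and 400 CPM and Mrc1 at 337 and 224 CPM. The part of these genes in the values below was not tested. Levels are given as CPM, UMIs per 1000000 UMIs of the gate, and ratios as the log2 of NAM over untreated CPM. The 95% intervals in parentheses reflect the number of molecules counted, or for a share of cells the number of cells. They leave out any spread among mice or libraries, and those of levels and ratios also leave out spread among cells. Where a few cells hold many of the molecules, intervals of levels and ratios are too narrow. Because each molecule is counted at its 3′ end, levels of different genes were compared without a length term.

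Promoter sequences are shown first, for members whose classes differ in how they are induced and on which the results below turn. RefSeq windows on GRCm38.p6, from 250 bases before to 50 bases after the transcription start, were at hand for 30 of the 36 members. Capitals in the Hspa1a and Hspb1 windows mark paired heat shock units, in the Hspe1 window a run covered by 2 overlapping matches to an element of 3 units, and in the Hspa5 window an ER stress element. All 4 run 5′ to 3′ on the strand of the gene, at chr17:34972107-34972406 (minus strand), chr5:135887669-135887968 (plus), chr1:55087898-55088197 (plus) and chr2:34771840-34772139 (plus).
Hspa1a: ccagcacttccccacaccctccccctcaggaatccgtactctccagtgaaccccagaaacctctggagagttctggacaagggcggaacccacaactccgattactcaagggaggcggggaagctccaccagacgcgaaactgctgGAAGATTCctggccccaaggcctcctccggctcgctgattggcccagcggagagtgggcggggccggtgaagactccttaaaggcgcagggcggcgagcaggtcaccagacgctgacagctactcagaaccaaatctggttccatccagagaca
Hspb1: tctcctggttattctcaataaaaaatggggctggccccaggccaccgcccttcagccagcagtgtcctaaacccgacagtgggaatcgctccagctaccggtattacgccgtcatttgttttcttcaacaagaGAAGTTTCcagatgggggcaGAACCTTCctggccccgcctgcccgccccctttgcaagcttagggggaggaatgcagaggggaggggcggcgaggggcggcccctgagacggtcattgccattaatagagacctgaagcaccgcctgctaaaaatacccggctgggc
Hspe1: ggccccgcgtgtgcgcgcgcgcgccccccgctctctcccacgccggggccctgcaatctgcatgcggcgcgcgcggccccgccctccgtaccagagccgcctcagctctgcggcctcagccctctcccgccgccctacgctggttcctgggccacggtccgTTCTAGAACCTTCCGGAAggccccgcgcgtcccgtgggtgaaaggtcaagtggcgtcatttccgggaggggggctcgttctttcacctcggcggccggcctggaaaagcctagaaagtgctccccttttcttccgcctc
Hspa5: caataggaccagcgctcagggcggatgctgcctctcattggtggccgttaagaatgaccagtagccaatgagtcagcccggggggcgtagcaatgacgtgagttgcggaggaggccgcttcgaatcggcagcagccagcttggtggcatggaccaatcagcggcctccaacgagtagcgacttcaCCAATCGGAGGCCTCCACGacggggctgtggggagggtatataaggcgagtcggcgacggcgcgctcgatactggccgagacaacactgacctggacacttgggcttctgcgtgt

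The Hspa1b window, at chr17:34959189-34959488 on the minus strand, was identical to that of Hspa1a at 296 of 300 bases, and its paired unit is the same. On both strands, the strict heat shock element GAANNTTCNNGAA (or TTCNNGAANNTTC) was found in windows of 5 of the 30 members (Hsph1, Dnajb6, Chordc1, Hspd1 and Hspe1), against 0.662% of 27025 genes. In the Hspe1 window its overlapping matches began 89 and 84 bases before the start. The Hspd1 matches are this same stretch read on the other strand, so here and in the looser search below 1 stretch counts for both genes. A looser search for GAANNTTC or TTCNNGAA, a part of the strict element, was added after the strict result was known. It matched 14 of the 30 members, among them 7 of the 8 stress-induced members with a window and 0 of the 7 endoplasmic reticulum members, against 17% of all genes. The ER stress element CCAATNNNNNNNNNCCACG (or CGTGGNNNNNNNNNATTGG) was found in 5 of 7 endoplasmic reticulum members, namely Calr, Canx, Dnajc3, Hsp90b1 and Hspa5, in no member of another class, and in 0.137% of genes. In Hspa5, which encodes BiP, the HSP70 of the endoplasmic reticulum, the match began 65 bases before the start. These matches describe the sequence only.

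In the macrophage gate, the most abundant and most deeply counted group, the inducible cytosolic chaperones as a class were lower in the NAM library. Mitochondrial chaperones were lower by a smaller amount, and the constitutive, cochaperone and endoplasmic reticulum classes were close to their untreated level. The 9 stress-induced genes together made up 2235 CPM without treatment and 1115 CPM with NAM, a log2 ratio of -1.004 (-1.02 to -0.98). Constitutive cytosolic chaperones stood at 4109 and 3871 CPM, with a ratio of -0.09 (-0.10 to -0.07), and cochaperones at 618 and 608 CPM, with a ratio of -0.02 (-0.06 to 0.01). Endoplasmic reticulum chaperones stood at 2206 and 2080 CPM, a ratio of -0.08 (-0.10 to -0.07). Mitochondrial chaperones stood at 684 and 576 CPM, a ratio of -0.25 (-0.28 to -0.21). The median over all 10889 genes with 50 or more UMIs in the gate was -0.04.

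A gene was counted as lower or higher when its log2 ratio was at or past 0.5 in either direction with 50 or more UMIs over both libraries. All 36 members reached that minimum in the macrophage gate, 6 were lower and 0 were higher, while 7.42% of all genes were lower and 2.48% were higher. All 6 belonged to the stress-induced class (Hspa1a, Hspa1b, Hspb1, Hsph1, Dnajb1 and Bag3), whose median ratio was -0.81.

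Hspa1a encodes the major inducible HSP70 (ENSMUSG00000091971, chromosome 17, 34969190 to 34972156, minus strand, GRCm38). It had 24100 UMIs, or 1074 CPM, in untreated macrophages and 9199 UMIs, or 376 CPM, in NAM macrophages. Its log2 ratio was -1.52 (-1.55 to -1.48), which was the 45th lowest of 10889 genes. Hspa1b, its neighbour and near-identical copy (ENSMUSG00000090877, chromosome 17, 34956436 to 34959238, minus strand), stood at 146 and 25.9 CPM, a ratio of -2.50 (-2.62 to -2.38). Per 100 Hspa1a UMIs there were 13.6 Hspa1b UMIs (13.2 to 14.2) among untreated cells and 6.90 (6.36 to 7.48) among NAM cells, so the copies did not differ between libraries by the same factor in this gate. In dendritic cells the values were 13.9 (11.7 to 16.4) and 7.88 (5.61 to 10.8), while intervals overlapped in monocytes, at 8.94 (7.33 to 10.8) and 6.32 (4.53 to 8.61), and in T cells, at 12.9 (10.4 to 15.9) and 12.1 (7.22 to 19.3).

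Hspb1, a small heat shock protein that holds unfolded proteins and binds actin filaments (ENSMUSG00000004951, chromosome 5, 135887919 to 135889563, plus strand), differed most of all members. It had 1082 UMIs, or 48.2 CPM, without treatment and 128 UMIs, or 5.23 CPM, with NAM, a ratio of -3.21 (-3.48 to -2.94) and the 5th lowest of all genes. Hsph1, an HSP110 that exchanges nucleotide on HSP70, stood at 47.8 and 19.9 CPM, a ratio of -1.26 (-1.42 to -1.11). Bag3, which couples HSP70 and small heat shock proteins to autophagy, stood at 42.8 and 24.5 CPM, a ratio of -0.81 (-0.96 to -0.66). Dnajb1, the HSP40 that delivers clients to inducible HSP70, stood at 140 and 83.5 CPM, a ratio of -0.75 (-0.83 to -0.66).

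The other 3 genes of the class differed less. Hsp90aa1, the inducible HSP90, stood at 445 and 324 CPM, a ratio of -0.46 (-0.50 to -0.42), just short of the fold used here. Dnaja1, an HSP40 that is also made without stress, stood at 277 and 244 CPM, a ratio of -0.18 (-0.24 to -0.13). Dnajb4, a further HSP40, was scarce at 14.0 and 12.4 CPM, and its interval included 0 (-0.18, -0.41 to 0.05). Without Hspa1a and Hspa1b, the remaining 7 genes of the class summed to a ratio of -0.51 (-0.54 to -0.48), so that pair carried much of the class difference.

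**Figure D1:**
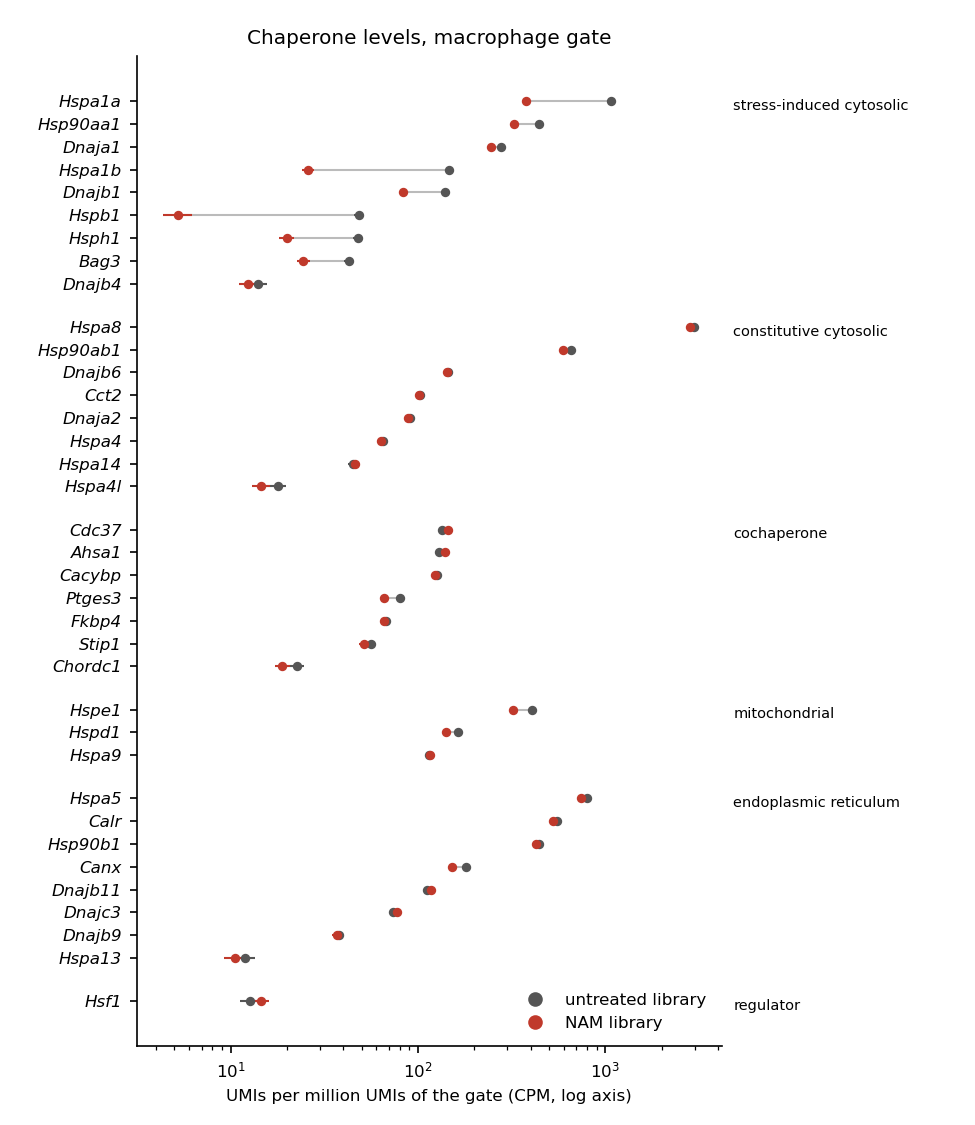
Level of each member in the macrophage gate, in CPM on a log axis, with the untreated library in grey and the NAM library in red; bars are 95% counting intervals and members are ordered by class and untreated level. The widest gaps are those of Hspb1 (48.2 and 5.23 CPM), Hspa1b (146 and 25.9 CPM) and Hspa1a (1074 and 376 CPM), and the points of Hspa8 nearly coincide (2984 and 2821 CPM).

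Among constitutive cytosolic genes, Hspa8, the HSP70 cognate, was the most abundant member in the gate at 2984 CPM untreated and 2821 CPM with NAM, a ratio of -0.08 (-0.10 to -0.07). Set against it, Hspa1a gave 35.97 UMIs per 100 Hspa8 UMIs (35.45 to 36.51) in untreated macrophages and 13.31 (13.02 to 13.61) in those of the NAM library. Hsp90ab1, the constitutive HSP90, stood at 659 and 594 CPM, a ratio of -0.15 (-0.18 to -0.12). Inducible Hsp90aa1 gave 67.6 UMIs (65.9 to 69.3) and 54.5 UMIs (53.0 to 56.0) per 100 of Hsp90ab1. The nucleotide exchange factors Hspa4 and Hspa4l had ratios of -0.02 and -0.30 (the latter 0.12 when cells were thinned to 3000 UMIs), the ribosome-associated Hspa14 0.04, and the HSP40s Dnaja2 and Dnajb6 -0.04 and -0.03. Cct2, a subunit of the CCT chaperonin that folds actin and tubulin, stood at 103 and 101 CPM, a ratio of -0.03.

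The cochaperones act mostly on HSP90. Ahsa1, which speeds its ATPase, stood at 129 and 140 CPM, a ratio of 0.11 (0.04 to 0.18), and Cdc37, which loads kinases onto it, stood at 135 and 145 CPM, a ratio of 0.10 (0.03 to 0.17). Ptges3, or p23, which stabilises closed HSP90, had a ratio of -0.29 (-0.39 to -0.20), and Chordc1, an HSP90 partner, had one of -0.25 (-0.44 to -0.07). Stip1, which links HSP70 to HSP90, had a ratio of -0.13 (-0.24 to -0.01), Fkbp4, an immunophilin of steroid receptor complexes, -0.04, and Cacybp, a calcyclin-binding protein, -0.05.

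In mitochondria, Hspe1 and Hspd1 encode the small and large subunits of the HSP10 and HSP60 chaperonin, from adjoining genes on chromosome 1. Hspe1 stood at 406 and 320 CPM, a ratio of -0.34 (-0.39 to -0.30), and Hspd1 at 164 and 140 CPM, a ratio of -0.22 (-0.29 to -0.16). Hspa9, the HSP70 that draws proteins into the matrix, stood at 115 and 116 CPM, a ratio of 0.02 (-0.06 to 0.09). The chaperonin pair and the matrix HSP70 therefore differed between libraries by unequal amounts.

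Endoplasmic reticulum members were led by Hspa5, at 795 and 739 CPM and a ratio of -0.10 (-0.13 to -0.07). The lectin chaperones Calr and Canx stood at 553 and 523 CPM (-0.08) and at 181 and 152 CPM (-0.25, -0.31 to -0.18). Hsp90b1, the HSP90 of this compartment, had a ratio of -0.06. The BiP partners Dnajb9, Dnajb11 and Dnajc3 had ratios of -0.04, 0.06 and 0.07, all with intervals that included 0, as did the interval of Hspa13, a divergent HSP70 (-0.19, or -0.65 when cells were thinned to 3000 UMIs). Hsf1 itself had 285 UMIs untreated and 354 UMIs with NAM, or 12.7 and 14.5 CPM, a ratio of 0.19 (-0.04 to 0.42). Transcript counts do not show how active the factor was.

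**Figure D2:**
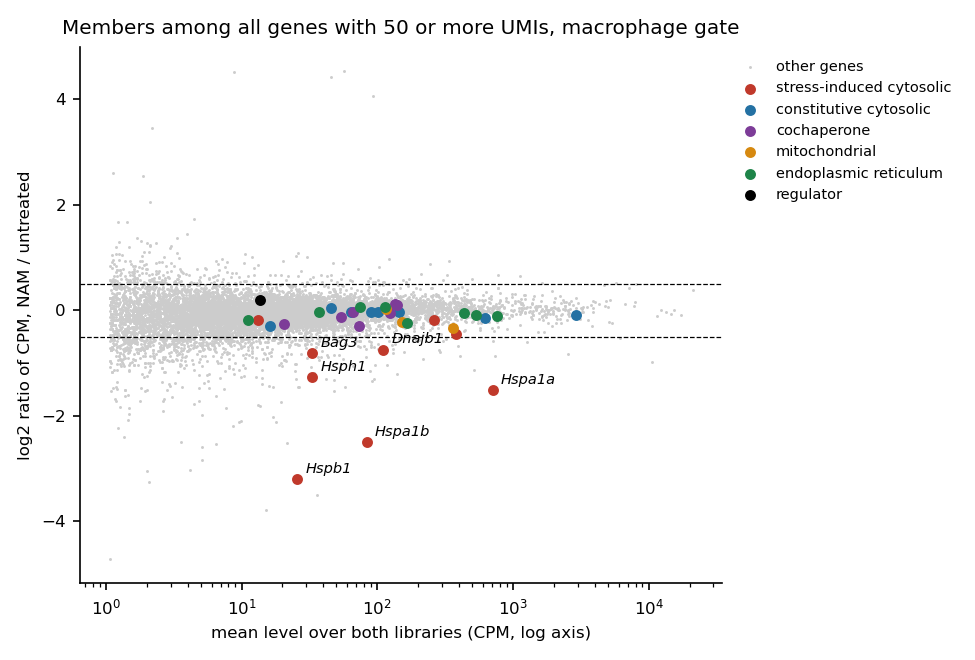
Log2 ratio of CPM (NAM over untreated) against mean CPM on a log axis for the 10889 genes with 50 or more UMIs in the macrophage gate; grey points are other genes, coloured points are members by class, and dashed lines mark a ratio of -0.5 and 0.5. The 6 named stress-induced genes lie below the lower line and the members of other classes lie between the lines.

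Outside macrophages, the summed UMIs of the stress-induced class were lower in the NAM library in each of the other 4 gates. Monocytes had 2067 and 1402 CPM of the class, a ratio of -0.56 (-0.64 to -0.48). Dendritic cells had 2842 and 1607 CPM, a ratio of -0.82 (-0.92 to -0.73). The median dendritic cell was not lower with NAM, at 1061 and 1129 CPM of the class, while the 90th percentile stood at 6816 and 3214 CPM. T cells had 2620 and 1483 CPM, a ratio of -0.82 (-0.90 to -0.74), and NK cells had 2008 and 1191 CPM, a ratio of -0.75 (-0.98 to -0.53). The median cell was lower with NAM in monocytes (1180 and 849 CPM), T cells (1512 and 1147 CPM) and NK cells (1300 and 990 CPM). Hspa1a and Hspa1b carried much of each difference, and without them the ratios were -0.31 in monocytes, -0.45 in dendritic cells, -0.43 in T cells and -0.42 in NK cells. Some values also rested on few cells or on where a gate was set. Without the 5 cells of each library richest in the class, the NK ratio was -0.43, where 5 cells are a larger share of 35 than of 69. That value lies outside the counting interval given above for NK cells. With gate minimums doubled, the dendritic ratio was -0.38.

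Hspa1a passed the fold in all 5 gates, and no other member did. In T cells it had 775 UMIs, or 701 CPM, without treatment and 165 UMIs, or 113 CPM, with NAM, a ratio of -2.64 (-2.89 to -2.39) that was the 7th lowest of 5082 genes. In NK cells it had 187 and 11 UMIs, or 443 and 63.3 CPM, a ratio of -2.81 (-3.83 to -1.93). In dendritic cells it stood at 1402 and 644 CPM, a ratio of -1.12 (-1.27 to -0.97), which became -0.39 with gate minimums doubled. The median dendritic cell held 1 Hspa1a UMI in either library. The richest 4 untreated and 5 NAM dendritic cells held 47.5% and 42.0% of its UMIs in their library. In monocytes Hspa1a stood at 796 and 411 CPM, a ratio of -0.96 (-1.09 to -0.82). Per 100 Hspa8 UMIs, Hspa1a gave 21.2 and 4.21 UMIs in T cells, 14.7 and 2.56 in NK cells, 38.9 and 22.2 in dendritic cells, and 19.7 and 12.0 in monocytes. Apoe, a gene of macrophages, was also counted in other gates and was set beside it. Apoe in T cells was 4.28% and 4.23% of its macrophage CPM in the untreated and NAM libraries, while Hspa1a in T cells was 65.3% and 30.0% of its macrophage CPM. In NK cells these shares were 4.84% and 3.37% for Apoe and 41.3% and 16.9% for Hspa1a. In dendritic cells they were 3.94% and 4.61% for Apoe and 131% and 171% for Hspa1a, and in monocytes 25.7% and 31.9% for Apoe and 74.2% and 109% for Hspa1a. The share of Hspa1a was thus lower with NAM in T and NK cells and higher in monocytes and dendritic cells.

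Hspa1b was lower in each of the 4 gates where it reached 50 UMIs, at 71.2 and 26.0 CPM in monocytes (-1.45), 195 and 50.7 CPM in dendritic cells (-1.94) and 90.5 and 13.7 CPM in T cells (-2.73). In NK cells it fell short of the minimum, with 24 UMIs untreated and 0 with NAM, which at a floor of 3 UMIs is at least 3.29-fold lower. Hsph1 was lower in monocytes (54.8 and 19.9 CPM, -1.46), T cells (77.8 and 41.7 CPM, -0.90) and dendritic cells (58.6 and 36.3 CPM, -0.69). The dendritic value was 0.19 when cells were thinned to 3000 UMIs. Hspb1 was below the minimum in these gates, with 19 and 9 UMIs in monocytes, 27 and 6 in T cells and 4 and 1 in NK cells. In dendritic cells it had 27 and 0 UMIs, at least 8.91-fold lower at the same floor.

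Dnajb1, unlike Hspa1a, passed the fold in some gates and not in all. It stood at 329 and 165 CPM in T cells, a ratio of -0.996 (-1.24 to -0.76), at 343 and 127 CPM in NK cells, a ratio of -1.44 (-2.16 to -0.79), and at 196 and 121 CPM in dendritic cells, a ratio of -0.70 (-1.07 to -0.33). In monocytes it stood at 91.9 and 88.8 CPM, a ratio of -0.05 (-0.39 to 0.29), the only gate in which Dnajb1 did not pass the fold. Hsp90aa1 passed it in none of the 5 gates, with ratios from -0.46 to -0.30, all below 0. Dnaja1 likewise ranged from -0.29 to -0.06. Bag3 reached the minimum outside macrophages in monocytes alone, with 32 and 36 UMIs, or 19.5 and 21.7 CPM, and a ratio of 0.16 (-0.57 to 0.89).

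Counts of members by gate were as follows. In monocytes 32 members reached the minimum, 8 were lower and 0 higher, against 9.76% and 7.06% of all genes. Beside Hspa1a, Hspa1b and Hsph1, those lower were Dnajb4 (29.8 and 17.5 CPM, -0.77), Chordc1 (28.6 and 19.9 CPM, -0.52), Stip1 (65.7 and 43.5 CPM, -0.60), Hspa5 (1157 and 802 CPM, -0.53) and Calr (571 and 393 CPM, -0.54). Of these 5, Chordc1 alone had an interval that included 0 (-1.21 to 0.15). Short of the fold under an alternative were Dnajb4 (-0.24) and Calr (-0.48) on thinning, and Hspa5 (-0.49) with cells weighted equally. In dendritic cells 30 reached the minimum, 4 were lower (Hspa1a, Hspa1b, Hsph1 and Dnajb1) and 1 was higher, against 10.8% and 9.75% of genes. Dnajb1 was at -0.49 without its 5 richest cells of each library. The higher one was Hspa14 (35.9 and 64.0 CPM, 0.84, 0.16 to 1.53), which was -0.54 when cells were thinned to 3000 UMIs. In T cells 31 reached it, the same 4 genes were lower and 1 was higher, against 9.76% and 7.14%. The higher one was Dnajb9 (33.5 and 48.5 CPM, 0.54), with an interval of -0.06 to 1.15 and a value of 0.38 on thinning. In NK cells 21 reached it, 4 were lower and 0 higher, against 11.9% and 8.71%. Beside Hspa1a and Dnajb1 these were Dnajc3 (154 and 97.8 CPM, -0.65) and Canx (187 and 121 CPM, -0.63), both with intervals that included 0. Over the alternatives Dnajc3 ranged from -1.57 to -0.48 and Canx from -1.04 to -0.47.

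**Figure D3:**
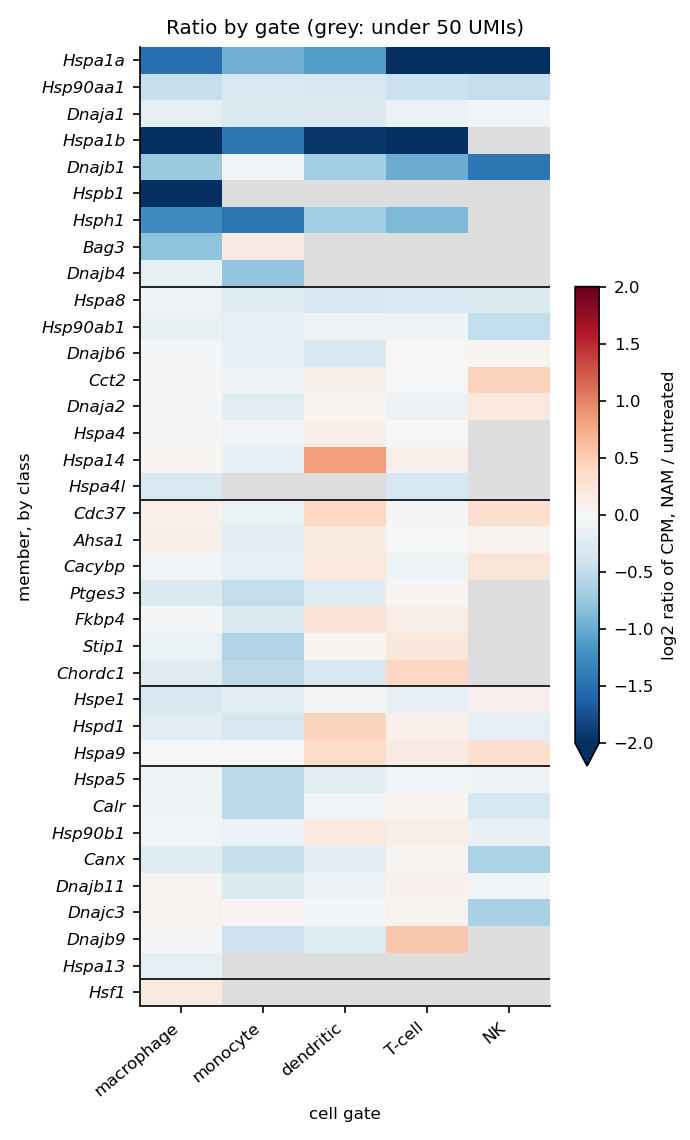
Log2 ratio of CPM (NAM over untreated) for each member (rows, by class, separated by lines) and gate (columns), blue for lower and red for higher in the NAM library, with colours saturated at -2 and grey for members with under 50 UMIs. Hspa1a is blue in all 5 gates, and the strongest colours lie in the top block, the stress-induced class.

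In the other classes the gates differed from each other. Endoplasmic reticulum chaperones in monocytes stood at 2558 and 1912 CPM, a ratio of -0.42 (-0.49 to -0.35), against 0.04 (-0.04 to 0.13) in T cells. Cochaperones in monocytes had a ratio of -0.28 (-0.42 to -0.14), and in dendritic cells one of 0.16 (-0.01 to 0.34). The mitochondrial class in these gates ranged from -0.20 (-0.36 to -0.04) in monocytes to 0.14 (-0.04 to 0.32) in dendritic cells. Constitutive cytosolic chaperones, of which Hspa8 makes up most UMIs, had ratios between -0.25 and -0.21 in the 4 gates outside macrophages. Hspa8 alone was at 4042 and 3419 CPM in monocytes (-0.24), 3604 and 2900 CPM in dendritic cells (-0.31), 3304 and 2681 CPM in T cells (-0.30) and 3006 and 2469 CPM in NK cells (-0.28). Whether these differences between gates exceed variation between mice was not tested.

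**Figure D4:**
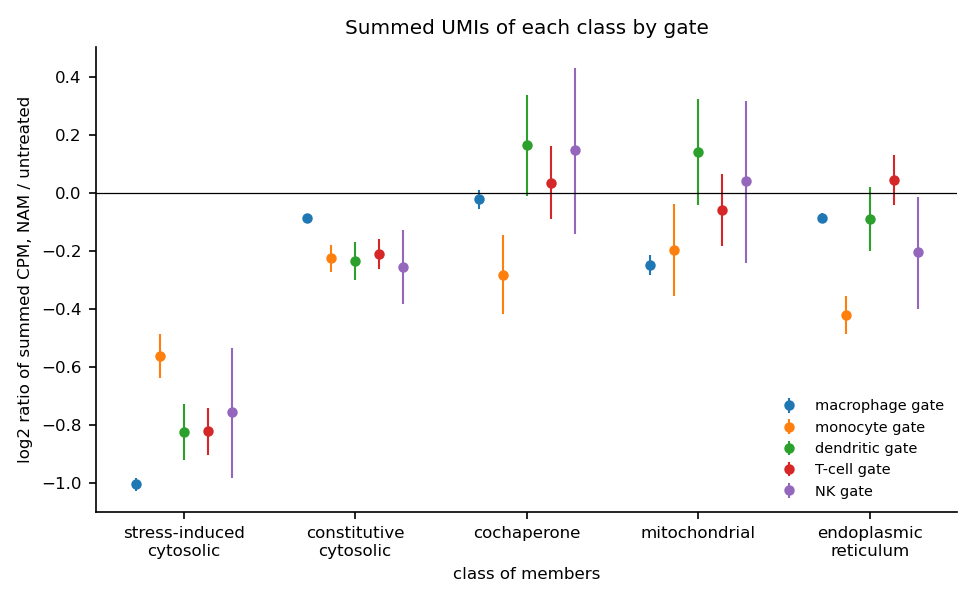
Log2 ratio of summed CPM (NAM over untreated) for each class of members, with 1 point per gate and bars for the 95% counting interval. The stress-induced class lies between -1.004 and -0.56 in all 5 gates, and the other 4 classes plotted, which leave out Hsf1, lie between -0.42 and 0.16.

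Levels also differed by cell type, within each library. They were counted in dissociated and bead-sorted cells, so no resting level was measured. In the untreated library Hspa1a ranged from 443 CPM in NK cells to 1402 CPM in dendritic cells, and in the NAM library from 63.3 CPM in NK cells to 644 CPM in dendritic cells. Dnaja1 was lowest in macrophages (277 and 244 CPM) and highest in NK cells (677 and 650 CPM). Hspe1 was lowest in monocytes (232 and 199 CPM) and stood at 550 and 489 CPM in T cells. Hspd1 was likewise lowest in monocytes (103 and 81.6 CPM), against 213 and 228 CPM in T cells. Hspa5 was highest in monocytes in both libraries, at 1157 and 802 CPM, and the lowest values were 575 CPM in untreated T cells and 555 CPM in NAM dendritic cells. The single-library intervals of NK and T cells overlapped for Dnaja1, so their order is not resolved by counting alone.

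Subsets of the gates gave the same direction for Hspa1a in each of the 7 subsets reported. Among macrophages, cells with 2 or more UMIs of Mki67 and Top2a (283 untreated and 244 NAM cells, proliferating) had Hspa1a at 708 and 357 CPM, a ratio of -0.99 (-1.08 to -0.90). Macrophages without them had 1165 and 379 CPM, a ratio of -1.62 (-1.66 to -1.58). The summed class had ratios of -0.50 (-0.56 to -0.45) in proliferating and -1.11 (-1.14 to -1.09) in other macrophages. CD8 T cells had 676 and 99.4 CPM (-2.77) and CD8-negative T cells 725 and 130 CPM (-2.48), with intervals that overlapped. Among dendritic cells, Hspa1a stood at 1542 and 635 CPM in Xcr1/Clec9a cells and at 1546 and 714 CPM in Cd209a cells. In Ccr7/Fscn1 cells it stood at 525 and 435 CPM, with 13 and 14 cells and an interval that included 0 (-0.27, -0.89 to 0.33). Hsp90aa1, short of the fold in each whole gate, was lower by the fold in non-proliferating macrophages, Cd209a cells and Ccr7/Fscn1 cells, and in no other subset.

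In the other classes the dendritic subsets went different ways. In Xcr1/Clec9a cells (27 untreated and 29 NAM cells) 27 members reached the minimum, 4 were lower and 8 higher, against 10.1% and 17.1% of all genes. Cochaperones had a ratio of 0.46 (0.22 to 0.70) there, mitochondrial members 0.34 (0.10 to 0.59) and endoplasmic reticulum members 0.35 (0.19 to 0.50), and the median over all genes was 0.12. In Cd209a cells (35 and 39 cells) 21 members reached the minimum, 11 were lower and 0 higher, against 14.6% and 8.54% of all genes. Their endoplasmic reticulum members had a ratio of -0.54 (-0.71 to -0.38), constitutive members -0.44 (-0.54 to -0.34) and cochaperones -0.29 (-0.59 to 0.01). The stress-induced class was lower in both subsets, at -0.78 and -0.96. The differences between subsets were not tested.

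Within the macrophage gate, the libraries differed more among the cells richest in these transcripts than at the median. The median macrophage had 1 Hspa1a UMI in either library, while the 90th percentile was 30 UMIs untreated and 13 with NAM, and the richest cells held 259 and 107. Cells with 10 or more Hspa1a UMIs accounted for 23.2% of untreated macrophages (21.4 to 25.1) and for 13.1% of NAM macrophages (11.8 to 14.6). The top 5% of cells carried 51.8% of all Hspa1a UMIs of the gate without treatment and 43.8% with NAM. Hspa1a was detected in 65.2% and 51.8% of macrophages, or in 46.2% and 33.5% after thinning each cell to 3000 UMIs. No gated cell type lacks chaperones, so no background share could be read from a type without the gene.

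Hspb1 was more concentrated still. It was seen in 10.8% of untreated macrophages (226 cells), where the top 5% of cells held 88.8% of its UMIs and the richest cell held 69, and in 4.52% of NAM macrophages (104 cells), where the richest cell held 6. Cells with 10 or more Hspb1 UMIs numbered 22 and 0, and a count of 0 among 2299 cells allows a share of up to 0.160%. Hspa8 was spread evenly by comparison, with a median of 25 and 23 UMIs per cell and 18.2% and 17.3% of UMIs in the top 5% of cells. Summed over the stress-induced class, the median macrophage stood at 948 and 741 CPM and the 90th percentile at 4625 and 2198 CPM, so the upper end differed by a larger factor than the middle.

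**Figure D5:**
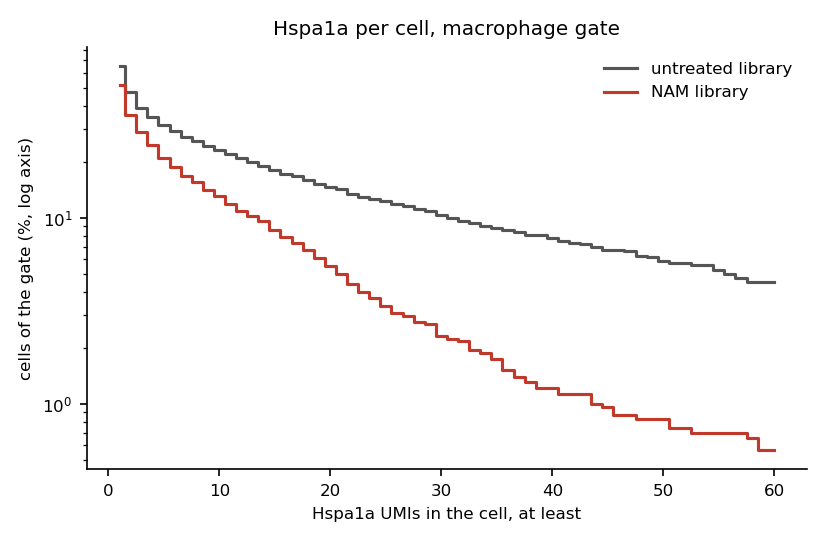
Percentage of macrophage-gate cells (log axis) with at least the number of Hspa1a UMIs on the horizontal axis, for the untreated library (grey) and the NAM library (red). The curves start at 65.2% and 51.8% for 1 UMI, stand at 23.2% and 13.1% for 10 UMIs, and draw further apart to the right.

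Hspa1a varied together with some inducible members from cell to cell. Across cells thinned to 3000 UMIs, Hspa1a and Hspa1b had a Pearson r of 0.63 over 2093 untreated cells and 0.36 over 2299 NAM cells. The r of Hspa1a with Hsp90aa1 was 0.32 and 0.18, with Dnajb1 0.29 and 0.17, with Hspa8 0.28 and 0.20, and with Hsph1 0.28 and 0.09. With Hspb1 it was 0.21 and -0.02. With Hspa5 it was -0.01 and 0.03, and the r of Hspa8 with Hspa5 was 0.07 and 0.06. The transcription factor gene Jun had an r with Hspa1a of 0.46 and 0.33, above that of each member examined other than Hspa1b, while Fos had 0.11 and 0.15. The scarcer members Dnajb4, Hspa4l, Chordc1, Hspa13 and Hsf1 were left out of the correlations. These values describe cells that share a library, and the inducible genes had fewer counts in the NAM library.

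Other genes of these pathways came from lists of 82 genes chosen for what they encode, with earlier results of these data known. Their counts in the macrophage gate stand against 7.42% of all genes lower and 2.48% higher. In the macrophage gate 0 of 6 other CCT subunits were lower or higher (median -0.01), and 0 of 8 genes of mitochondrial proteostasis (median -0.02). Of 21 other cytosolic chaperones and cochaperones, 0 were lower and 1 was higher, Bag2 (29 and 46 UMIs, 0.54, -0.16 to 1.26). Of 18 genes of the unfolded protein response, 1 was lower and 1 higher, with a median of -0.04. The lower one was Hyou1, a nucleotide exchange factor of BiP, at 20.4 and 10.9 CPM and a ratio of -0.90 (-1.12 to -0.68). The higher one was Trib3, at 1.60 and 2.29 CPM (0.51, -0.12 to 1.16).

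Of the other heat shock factors, Hsf2 stood at 11.2 and 4.00 CPM in the macrophage gate, a ratio of -1.48 (-1.83 to -1.14), while Hsf1 did not pass the fold. Hsf2 was counted less often in the other gates, with 24 and 7 UMIs in dendritic cells and 23 and 13 in T cells. Of 16 immediate early genes, whose transcription is induced rapidly by many signals, 1 was lower and 2 were higher in the macrophage gate, with a median of 0.14. The lower one was Jun, at 359 and 214 CPM, a ratio of -0.75 (-0.80 to -0.70), and Egr1 (0.53) and Egr2 (0.59) were higher. Jun had the lowest ratio of that list in each of the 5 gates, at -0.61 in monocytes, -1.20 in dendritic cells, -0.94 in T cells and -0.78 in NK cells. None of 7 genes for metallothioneins and oxidative stress passed the fold in macrophages (median -0.17), and 6 of 7 were lower in monocytes (median -0.89), where 9.76% of all genes were lower. In dendritic cells 1 of 4 was lower and 2 were higher (median 0.25), against 10.8% and 9.75% of all genes. In T cells 0 of 5 passed the fold, and in NK cells 1 of 2 was lower, against 11.9% of all genes.

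Some counts are uncertain because near-identical sequence elsewhere could take or give reads. Of the 98-base stretches in the last 500 bases of the transcript, 79.4% of those of Hspa8 occur in 7 other annotated genes, most of them named as predicted genes. The shares were 34.7% for Hspe1, 32.3% for Ahsa1 and 5.21% for Hspb1, each with 1 other gene. No such stretch of Hspa1a or Hspa1b was shared exactly, although their promoters and coding sequences are alike. A 98-base read without errors from within these 500 bases therefore matches only its own gene. Stretches that differ by a few bases or lie further upstream were not searched.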

How the data were processed

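Droplet 3′ RNA-seq was performed on CD45+ cells of TSA tumours, with 1 library per group. The authors aligned reads with Cell Ranger to mm10, per the labels and the study's methods; the annotation version is not given in the sources used here. The deposited values are raw UMI counts per gene and cell, of cells with 1000 genes, 3000 UMIs and at most 10% mitochondrial UMIs per the study's filter. Some items, among them a planned split of the macrophage gate, are not reported here. No column was left without a sample (0), and no doublet caller was run.

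Cells were gated on marker UMIs: C1qa, C1qb and C1qc (10 or more) for macrophages, Ly6c2 and Plac8 (3) for monocytes, Xcr1 and Clec9a (2), Cd209a (2) or Ccr7 with Fscn1 (2) for dendritic cells, Cd3 genes (2) for T cells, and Ncr1 (1) without Cd3d or Cd3e for NK cells. Cells in no gate (197 and 242) or in more than 1 lineage (37 and 54) were left out. Counts were summed per gate and library, with exact Poisson, binomial and conditional binomial 95% intervals. Members past the log2 fold of 0.5 with 50 UMIs, and members needed to describe each class, were named. Members and lists were chosen with earlier results of these data known. The code was tested on simulated data. Python 3.11.15, NumPy 2.4.6, SciPy 1.17.1, pandas 2.3.3 and matplotlib 3.10.9 were used, with random seed 1.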

Additional observations from a re-analysis of the deposited data

Results flagged for a closer look

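Some members had counting intervals on opposite sides of 0 in 2 gates or subsets. The difference between gates was not tested in any of these cases, since each group has 1 library. Hspd1, the mitochondrial HSP60, had a log2 ratio of NAM over untreated CPM of 0.44 in dendritic cells and -0.22 in macrophages. Dnajb6, an HSP40, had -0.35 in CD8 T cells and 0.41 in CD8-negative T cells. Hsp90ab1, the constitutive HSP90, had 0.28 in Xcr1/Clec9a dendritic cells and -0.53 in Cd209a dendritic cells. Dnajb11, a BiP partner, had 0.59 in Xcr1/Clec9a and -1.06 in Cd209a dendritic cells. Hspa5, or BiP itself, had 0.30 in Xcr1/Clec9a, -0.68 in Cd209a and -1.24 in Ccr7/Fscn1 dendritic cells. These dendritic subsets held 27 and 29, 35 and 39, and 13 and 14 cells in the untreated and NAM libraries.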

How the results depend on the processing

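The summed stress-induced class was lower in the NAM library under every alternative reported, in all 5 gates. In macrophages it was -0.96 with median-of-ratios scaling, -0.97 with cells thinned to 3000 UMIs, -1.05 without the deepest 5% of cells, -0.51 without Hspa1a and Hspa1b and -1.11 in non-proliferating cells. Thinning gave -0.75 in monocytes and -0.70 in dendritic cells. Weighting cells equally gave -0.69 in monocytes and -0.98 in NK cells. Doubled gate minimums gave -0.65 in monocytes and -0.38 in dendritic cells. Without the 5 richest cells of each library it was -0.63 in dendritic, -0.65 in T and -0.43 in NK cells. Without Hspa1a and Hspa1b it was -0.31 in monocytes, -0.45 in dendritic, -0.43 in T and -0.42 in NK cells.

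Splits of a gate at its median were chosen after seeing the data. Shallower and deeper cells gave -0.85 and -1.07 in macrophages, -0.91 and -0.48 in monocytes, -1.14 and -0.59 in dendritic, -0.64 and -0.93 in T, and -1.47 and -0.34 in NK cells. Cells of lower and higher mitochondrial share gave -1.05 and -0.85 in macrophages, -0.45 and -0.62 in monocytes, -0.92 and -0.57 in dendritic, -0.79 and -0.82 in T, and -0.93 and -0.56 in NK cells.

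Of the other macrophage classes, median-of-ratios scaling gave -0.04 for constitutive, 0.02 for cochaperone, -0.21 for mitochondrial and -0.04 for endoplasmic reticulum members. Doubled minimums gave -0.07 for constitutive and -0.21 for mitochondrial members. Without the deepest cells the values were 0.02 for cochaperones and -0.21 for the mitochondrial class, and thinning gave -0.19 for the latter. At a minimum of 200 UMIs, 3 of 23 members were lower by the fold in monocytes (6.45% of all genes), 2 of 24 in T cells (3.97%) and 0 of 7 in NK cells (5.95%). At a minimum of 5, these were 7 of 36 in T cells (20%) and 9 of 36 in NK cells (30.1%). Doubled gate minimums gave 2 of 28 in dendritic cells (11%) and 2 of 21 in NK cells (10.4%). Without the 5 cells richest in each gene, 7 of 21 members and 30.9% of all genes were lower in NK cells. Of single members, 19 values had a sign other than in the report. In 16 of them, over 8 macrophage members, the reported interval already included 0. In 3 it did not, all on thinning: Hspa4l in macrophages (0.12), Hsph1 in dendritic cells (0.19) and Hspa14 in dendritic cells (-0.54). The cause was not tested.

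No paired analysis was possible because each group has 1 library. Intervals cover counting error only, and variation between mice cannot be estimated from pooled tumours. The NK gate, with 69 and 35 cells, left 15 members under 50 UMIs.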
